A study of Homo sapiens with 3 samples.

Results

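The genes described are MMP9 with 6 other matrix metalloproteinases (MMP1, MMP2, MMP3, MMP7, MMP14 and MMP15) and 3 tissue inhibitors of metalloproteinases (TIMP1, TIMP2 and TIMP3). They were taken by name, with earlier results of these data known. Every probe set annotated to one of them alone was used, which gave 21 of the 41097 single-gene probe sets on the array and 10 of 19775 genes. The samples were UM-UC-3 cells, an established human bladder cancer line, transfected with DANCR siRNA1, with DANCR siRNA2 or with a negative control siRNA. All cells received 75 nM siRNA with Lipofectamine RNAimax, and RNA was taken after 48 h and hybridised to 1 Affymetrix array per group, 3 arrays in all. DANCR is a long noncoding RNA, and the knockdown is transient in a single cell line. With 1 array per group there was no replicate check, no error could be given and no p-value was computed.

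Matrix metalloproteinases are zinc-dependent endopeptidases that are secreted or anchored in the plasma membrane as inactive proenzymes and are switched on by removal of a propeptide. Together they cut collagens, laminins, fibronectin and cell surface proteins, and TIMPs bind the active site of the mature enzymes and block it. In bladder tumours the gelatinases MMP2 and MMP9, which cut denatured collagen and the type IV collagen of basement membranes, are the members most often studied in relation to invasion.

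The siRNA sequences are shown because they are the agents that set the groups apart. They are given 5′ to 3′ as in the sample labels, with the trailing pair of T bases in capitals.
DANCR siRNA1: gcguacuaacuuguagcaaTT
DANCR siRNA2: gagcuagagcagugacaauTT
control siRNA: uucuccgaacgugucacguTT

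DANCR was measured on 1 probe set, at an intensity of 116 with siRNA1 and 126 with siRNA2, against 671 with the control siRNA. That left 17.3% and 18.8% of the control level. The arrays had mean intensities from 95.3 to 96.5, and 48.9% to 49.3% of the probe sets on each array lay above the median of the whole table, an intensity of 10.5. The 3′/5′ ratio of ACTB, a gauge of RNA integrity, was 11.8 with siRNA1, 14.4 with siRNA2 and 11.9 with the control siRNA. That of GAPDH was 1.29 with siRNA1, 1.35 with siRNA2 and 1.25 with the control siRNA. The ACTB ratio was far above that of GAPDH on every array, and both were highest with siRNA2. Good RNA integrity therefore cannot be taken from these values. The line's markers were checked: KRT7, KRT8, KRT18 and the urothelial transcription factors GATA3, PPARG and FOXA1 lay above the table median on all arrays, while EPCAM, CDH1, KRT19, KRT5, KRT20 and all 4 uroplakins examined lay below it. KRT18 read 711 with siRNA1, 1022 with siRNA2 and 1315 with the control siRNA. Across the arrays KRT7, KRT8 and GATA3 read from 20.0 to 35.2, and PPARG and FOXA1 from 12.5 to 15.0, near the table median. VIM, the mesenchymal filament vimentin, was at 4412 with siRNA1, 4861 with siRNA2 and 5322 with the control siRNA.

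Of the 10 genes, 7 had a probe set above the table median and 3 did not. The proteases above it were MMP9, MMP2, MMP14 and MMP15, and all 3 TIMPs were above it on at least 1 probe set. MMP1, MMP3 and MMP7 were below it on all 3 arrays. No probe set crossed the median between arrays: 13 were above it on all 3 and 8 were below it on all 3. Values under the median were raised to it before ratios were taken, so a probe set below it on all arrays has no ratio. Different probe sets bind with different efficiency, so intensities are compared between arrays for the same probe set and not between genes.

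**Figure D1:**
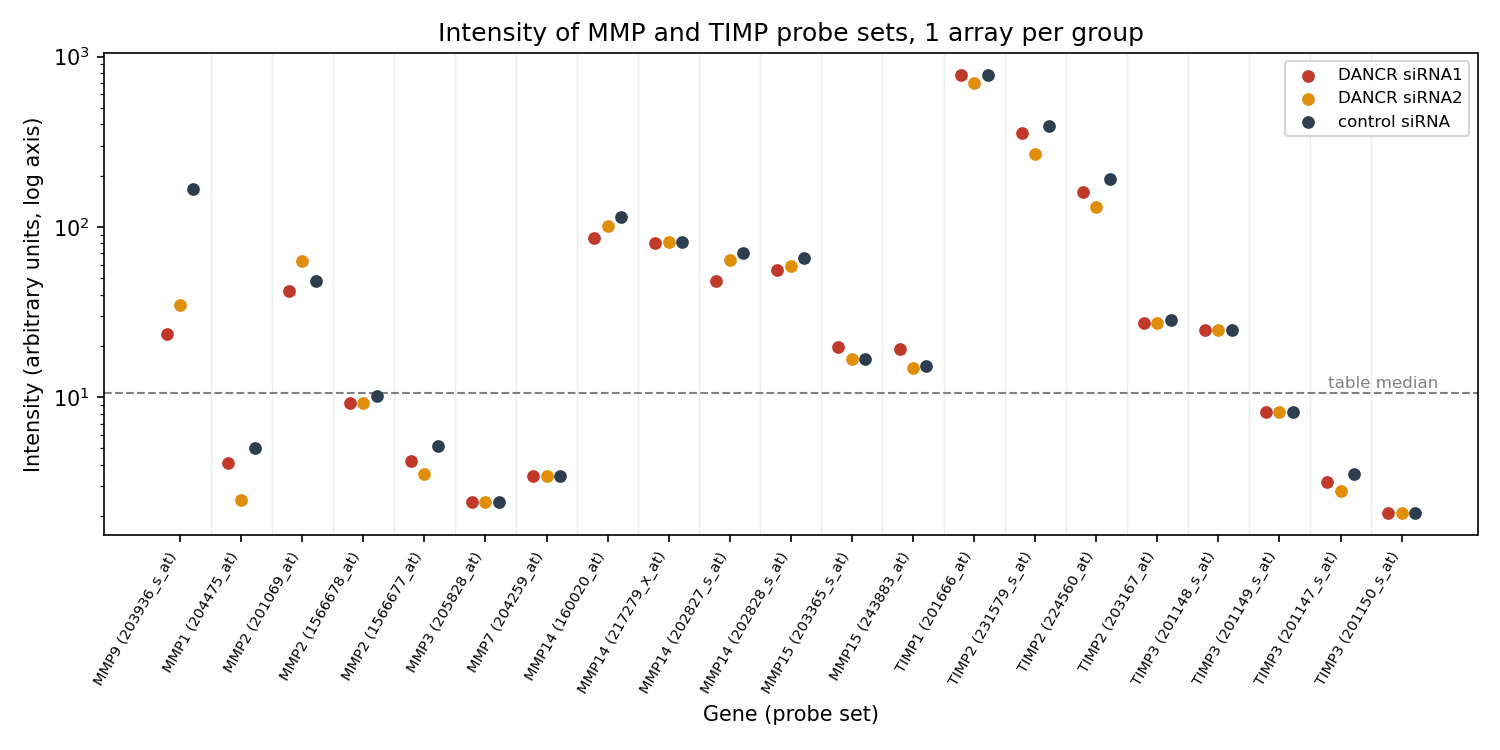
Intensity (arbitrary units, log axis) of the 21 probe sets of the MMP and TIMP genes, with a point for each array (DANCR siRNA1, DANCR siRNA2, control siRNA) and the table median of 10.5 as a dashed line. MMP9 is the probe set with the widest gap, at 23.6 and 34.8 in the DANCR siRNA arrays and 167 in the control array, and 8 probe sets lie below the line on all 3 arrays.

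MMP9 was the protease that differed most. Gelatinase B, its product, is secreted as a proenzyme and cuts type IV collagen and gelatin. Its intensity was 23.6 with siRNA1 and 34.8 with siRNA2, against 167 with the control siRNA. Both DANCR siRNA arrays thus lay well under the control array, at 14.1% and 20.8% of it, and both were still above the table median. The log2 ratio to the control was -2.82 with siRNA1 and -2.27 with siRNA2, which is 7.08-fold and 4.81-fold lower. Between the DANCR siRNAs the log2 ratio of siRNA1 over siRNA2 was -0.56, so siRNA1 was 1.47-fold lower.

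A 2-fold difference from the control was used as the threshold for calling a gene. Of the 10 genes, MMP9 alone was at least 2-fold lower with both siRNAs, and no member was 2-fold higher with either. Over all 12436 measured genes (those with at least 1 array above the table median), 0.281% met the same criterion for lower and 0.716% that for higher. With siRNA1 alone 1.75% of measured genes were 2-fold lower and 1.87% higher, and with siRNA2 alone 1.21% were lower and 2.15% higher. Among the 2922 measured genes with a control intensity between 100 and 300, the range in which MMP9 lies, 0.445% were 2-fold lower with both. When genes were ordered by whichever siRNA gave the lesser reduction, MMP9 came 2nd among the 2949 genes lower with both, after DANCR. By siRNA it ranked 2nd among the most lowered genes with siRNA1 and 7th with siRNA2. The members were chosen with earlier results of these data known, so the call and the ranks are no independent support. Both ratios are taken against the same control array and are not independent of each other. The arrays measured RNA of whole cultures, so less MMP9 RNA per cell and fewer cells that express it cannot be told apart.

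MMP9 rests on 1 probe set, and no other probe set of the gene was there to set beside it. The set's suffix, _s_at, marks one whose probes can match more than 1 transcript. When sets with the suffixes _s_at and _x_at were left out, no value for MMP9 remained and the number of called members was 0.

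**Figure D2:**
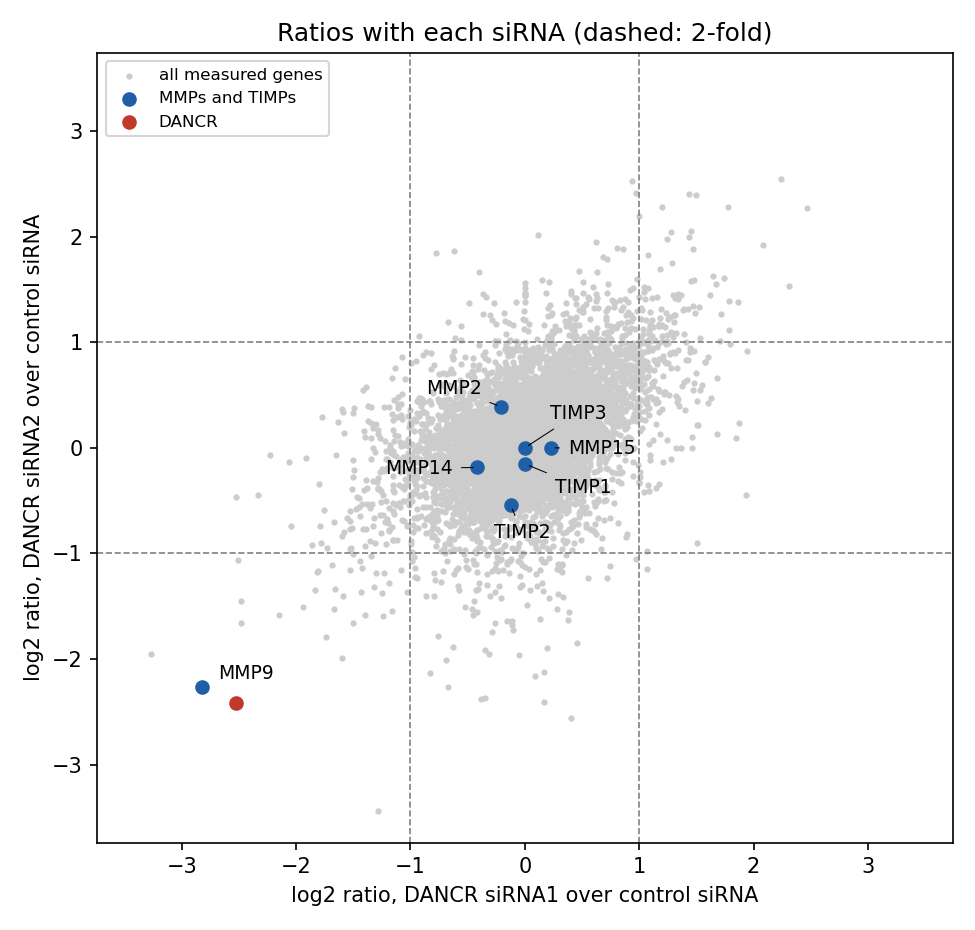
Log2 ratio to the control siRNA array with DANCR siRNA1 (x axis) and with DANCR siRNA2 (y axis) for each measured gene (grey), the 7 measured MMPs and TIMPs (blue) and DANCR (red), with dashed lines at 2-fold. MMP9 lies at -2.82 and -2.27 beside DANCR, and the 6 other MMPs and TIMPs lie inside the 2-fold lines on both axes.

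The 6 other measured members stayed within 1.46-fold of the control with either siRNA. Their median log2 ratio was -0.06 with siRNA1 and -0.08 with siRNA2, against 0.00 over all measured genes with each siRNA. The central 95% of measured genes (2.5th to 97.5th percentile) ran from -0.89 to 0.92 with siRNA1 and from -0.76 to 0.95 with siRNA2, and each of the 6 lay inside both ranges.

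MMP2, the other gelatinase, lay on different sides of the control with the siRNAs on its brightest probe set. Its brightest probe set read 41.9 with siRNA1 and 63.3 with siRNA2, against 48.3 with the control siRNA. The log2 ratios were -0.21 and 0.39. The siRNA arrays differed by -0.60 (log2, siRNA1 over siRNA2), which is short of 2-fold; a gap of 2-fold or more between these arrays was found in 3.92% of measured genes. Its other 2 probe sets lay under the table median on all arrays, with intensities from 3.53 to 10.1, so by the median over its 3 sets the log2 ratio was 0.00 with each siRNA.

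MMP14 and MMP15 encode membrane-type metalloproteinases, which span the plasma membrane. MMP14 cuts fibrillar collagen at the cell surface and, together with TIMP2, activates the proenzyme of MMP2. All 4 probe sets of MMP14 were above the table median. The brightest read 85.8 with siRNA1 and 101 with siRNA2, against 115 with the control siRNA, for log2 ratios of -0.42 and -0.19. Its 3 other probe sets gave ratios of -0.56, -0.23 and -0.02 with siRNA1. With siRNA2 the same sets gave -0.14, -0.15 and 0.00. So no MMP14 probe set was above the control with either siRNA, and the set with the ratio of 0.00 had the identical value of 81.2 on the siRNA2 and control arrays. None reached 2-fold.

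MMP15 was of low intensity. Its brighter probe set read 19.8 with siRNA1 and 16.9 with siRNA2, against 16.9 with the control siRNA. The other read 19.1 with siRNA1 and 14.9 with siRNA2, against 15.2 with the control siRNA. With siRNA1 both sets were above the control, by 0.23 and 0.32 on the log2 scale, and with siRNA2 they differed from it by 0.00 and -0.04.

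The inhibitors had 8 probe sets, 5 of them above the table median. TIMP1, a secreted inhibitor that also binds the proenzyme of MMP9, read 781 with siRNA1 and 700 with siRNA2, against 778 with the control siRNA. The log2 ratios were 0.00 and -0.15, so its level differed little between arrays on which MMP9 was 7.08-fold and 4.81-fold lower.

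TIMP2, which inhibits MMP2 and also takes part in its activation, had 3 probe sets above the table median. The brightest read 357 with siRNA1 and 267 with siRNA2, against 389 with the control siRNA. The second read 161 with siRNA1 and 130 with siRNA2, against 191 with the control siRNA. The log2 ratios of these sets were -0.12 and -0.25 with siRNA1, and -0.54 and -0.55 with siRNA2. The order of the arrays was the same on both, with siRNA2 lowest and the control highest. The third set was dim, at 27.2 with each DANCR siRNA and 28.4 with the control siRNA, a ratio of -0.06 with each.

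TIMP3, the inhibitor that binds to the extracellular matrix, was at 24.9 on all 3 arrays on its brightest probe set, and its 3 other sets were below the table median. Exactly repeated values of this kind were frequent in the deposited table, where 32.1% of all probe sets had the same value on all 3 arrays, and 14.7% of those with a mean above the table median. Among the 21 sets of the MMPs and TIMPs, 5 had 1 value on all arrays and 4 had a value shared by a pair of arrays. A ratio of exactly 0 therefore cannot be read as a measured lack of difference.

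Among the 13 probe sets above the table median, 7 were lower than the control with both siRNAs. Counted by gene, MMP9, MMP14 and TIMP2 were lower with both, 3 of 7. Over all measured genes 23.7% were lower with both at any size. The median log2 ratio of the 7 measured genes was -0.12 with siRNA1 and -0.15 with siRNA2.

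MMP1, the interstitial collagenase, MMP3, stromelysin 1, and MMP7, matrilysin, had no probe set above the table median. MMP3 read 2.42 and MMP7 3.45 on every array. MMP1 read 4.08 with siRNA1 and 2.47 with siRNA2, against 5.03 with the control siRNA, which is the 30th percentile of the table. In the RefSeq annotation (GRCh38.p14) these genes sit in a run of 9 neighbouring protein-coding genes, all of them metalloproteinases. The run also holds MMP8, MMP10, MMP12, MMP13, MMP20 and MMP27. None of the 10 probe sets for the 9 genes was above the table median on any array, and the highest of their values was the 5.03 of MMP1 in the control array.

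Of the 16 metalloproteinase genes outside the members, 15 had a single-gene probe set and 7 were measured, with median ratios of 0.00 with each siRNA. None was 2-fold different with either siRNA. MMP16, a further membrane-type enzyme, was above the control on its brightest probe set, at 136 with siRNA1 and 145 with siRNA2, against 96.3 with the control siRNA. Its log2 ratios were 0.50 and 0.59, and its next brightest set gave 0.48 and 0.83. MMP19 gave -0.04 with each siRNA. MMP11, MMP17, MMP24 and MMP25 had the same value on all 3 arrays on their brightest probe sets. The other measured MMP25 set gave log2 ratios of -0.12 with siRNA1 and -0.25 with siRNA2.

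Other inhibitors of matrix proteases had 6 measured genes of 11 listed, none called with both siRNAs, and median log2 ratios of -0.09 with siRNA1 and 0.08 with siRNA2. TFPI2, a secreted inhibitor of serine proteases, read 80.5 with siRNA1 and 110 with siRNA2, against 140 with the control siRNA, for log2 ratios of -0.80 and -0.35. Its other measured probe set gave -0.04 and 0.00. RECK, a membrane-anchored inhibitor of MMP9, MMP2 and MMP14, gave -0.17 with each siRNA on its brightest probe set, but its next brightest set gave -0.82 and -1.13. SERPINE2, an inhibitor of serine proteases, lay on different sides of the control, with -0.55 and 0.51. THBS1, the matrix protein thrombospondin 1, read 29.1 with siRNA2 and was under the table median with siRNA1 and with the control siRNA. On that probe set it was called higher with siRNA2, by at least 2.76-fold. Its next brightest set did not repeat this, with log2 ratios of 0.00 and 0.07. Of all measured genes 2.15% were 2-fold higher with siRNA2.

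Activators and surface partners of the enzymes had 17 measured genes of 19, with 10 lower than the control with both siRNAs and 1 higher with both. Of all measured genes 23.7% were lower with both at any size, and the share higher with both was not computed. The list's median log2 ratio was -0.27 with siRNA1 and -0.04 with siRNA2. PLAU, the urokinase that starts the plasmin cascade by which proenzymes of MMPs can be activated, was the member at least 2-fold lower with both. It read 538 with siRNA1 and 1457 with siRNA2, against 3052 with the control siRNA. Of all measured genes 0.281% were 2-fold lower with both. PLAU was selected by the study from these same samples, so it is no independent evidence of the list's direction. PLAUR, its receptor, gave log2 ratios of -0.83 and -0.65. The dimmer PLAT, tissue plasminogen activator, gave -0.50 with each siRNA, and PCSK6, a proprotein convertase, gave -0.21 and -0.26. CAV1, the caveolae coat protein caveolin 1, was the member higher with both, with 0.32 and 0.87. LCN2, which forms a complex with MMP9, was below the table median.

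ADAM and ADAMTS proteases, which share the metalloproteinase fold, had 15 measured genes of 24, none called with both siRNAs. At any size 2 were lower with both and 4 higher, beside 23.7% of all measured genes lower with both. The share of all measured genes higher with both was not computed, so the 4 cannot be set against it. ADAMTS1, a secreted protease of proteoglycans, read 174 with siRNA1 and 340 with siRNA2, against 128 with the control siRNA, for log2 ratios of 0.45 and 1.42. Its other probe set gave 0.69 and 1.56. ADAM10, a sheddase of membrane proteins, gave 0.69 and 0.48, and ADAMTS12 gave 0.26 and 0.27. ADAM12 gave -0.16 and -1.10, whereas its next brightest probe set gave 0.42 and -0.31.

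Matrix proteins that these enzymes cut had 20 measured genes of 27, with 1 higher and 1 lower by 2-fold with both siRNAs. The shares over all measured genes were 0.716% for higher and 0.281% for lower. COL3A1, a fibrillar collagen, read 49.9 with siRNA1 and 61.6 with siRNA2, against a control value under the table median, which gives a lower bound of 4.74-fold with siRNA1 and 5.85-fold with siRNA2. LAMB3, a laminin chain of epithelial basement membranes, read 30.8 with siRNA1 and 29.2 with siRNA2, against 65.3 with the control siRNA, for log2 ratios of -1.08 and -1.16. LAMA5, another laminin chain, gave -1.52 and -0.95. COL4A1, a chain of the type IV collagen that MMP9 cuts, gave 0.39 and 0.86, and COL4A6 gave 0.44 and 0.85. VCAN, the proteoglycan versican, was also under the table median in the control on its brightest probe set. The lower bounds of that set were 1.79-fold with siRNA1 and 1.38-fold with siRNA2. Its other measured set read 11.3 with the control siRNA, above the table median, and gave log2 ratios of 0.15 with each siRNA. The fibroblast marker list, which shares COL3A1 and COL1A1 with these genes, had summed intensities of 232 with siRNA1, 260 with siRNA2 and 219 with the control siRNA over 8 genes; COL1A2, DCN and LUM were below the table median on all arrays. Without COL3A1 the sums over 7 genes were 182 with siRNA1, 198 with siRNA2 and 210 with the control siRNA. THY1 (-0.41 and -0.25) and PDGFRB (-0.29 with each) were lower than the control on the log2 scale. COL1A1 gave 0.00 and -0.07. PDGFRA went the other way with siRNA2, at 17.9, and was under the table median with siRNA1 and with the control siRNA.

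Transcription factors known to act at MMP promoters had 16 measured genes of 19, with 6 lower and 4 higher with both siRNAs at any size. The share lower with both over all measured genes was 23.7%, and the share higher with both was not computed. JUND, a subunit of AP-1, was the member called with both siRNAs. It read 218 with siRNA1 and 209 with siRNA2, against 87.6 with the control siRNA, which is 2.49-fold and 2.39-fold higher. Of all measured genes 0.716% were 2-fold higher with both. With a single siRNA, the AP-1 subunits FOSL1 (-1.02) and FOSL2 (-1.11) were 2-fold lower with siRNA1 and NFKB1 (-1.07), the precursor of the NF-kappaB subunit p50, was so with siRNA2. Their log2 ratios with the other siRNA were -0.05, 0.42 and -0.06. Of all measured genes 1.75% were 2-fold lower with siRNA1 and 1.21% with siRNA2. FOSL1, FOSL2 and NFKB1 were named after their values were seen. The next brightest FOSL2 probe set gave -0.63 with siRNA1, short of 2-fold, and 0.69 with siRNA2. JUNB, another AP-1 subunit, gave log2 ratios of -0.41 and -0.38. RELA, the NF-kappaB subunit p65, gave -0.24 and -0.60, and ETV4, an ETS factor, gave -0.32 and -0.26. Their next brightest sets gave -0.11 and -0.26 for RELA, and -0.22 and 0.00 for ETV4. SNAI2, a zinc finger factor of mesenchymal cells, gave 0.28 and 0.78. The list's median was -0.20 with siRNA1 and 0.02 with siRNA2.

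**Figure D3:**
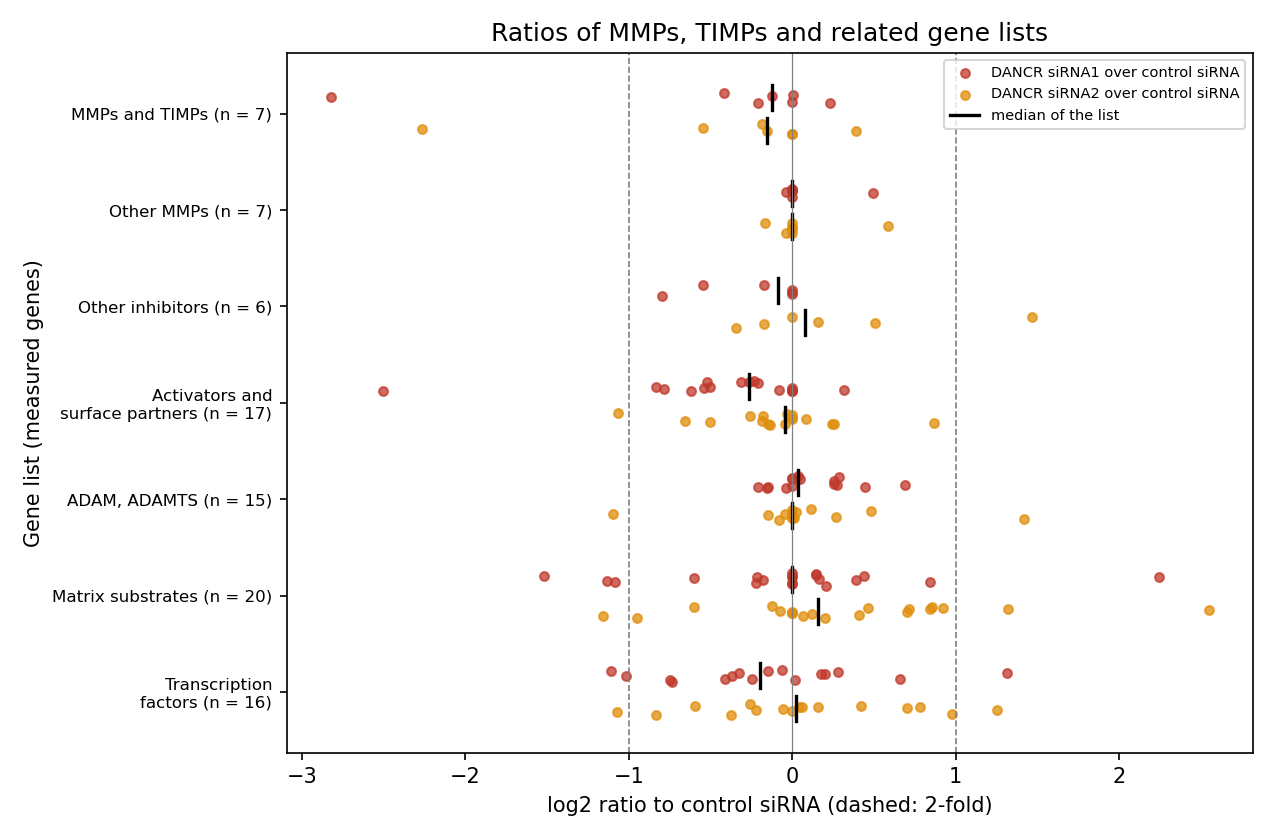
Log2 ratio to the control siRNA array for the measured genes of each list, with DANCR siRNA1 in red, DANCR siRNA2 in orange, black bars at the list's median and dashed lines at 2-fold. MMP9 (-2.82 and -2.27) stands away from the other MMPs, and the only further points beyond -2 are those of PLAU with siRNA1 (-2.50).

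MMP9 is also made in quantity by leukocytes, and leukocyte markers were checked. Of the 8 markers with a single-gene probe set, 2 were above the table median with each DANCR siRNA and 3 with the control siRNA. CD79A was above it on all arrays, at 22.9 with siRNA1, 18.9 with siRNA2 and 23.0 with the control siRNA. So was CD3E, at 14.9 with each DANCR siRNA and 15.8 with the control siRNA. ITGAM was above it with the control siRNA alone, at 10.8. PTPRC, CD14, LYZ, MPO and S100A8 were below the table median on all arrays. The summed intensity over the 8 markers was 65.7 with siRNA1, 57.8 with siRNA2 and 69.6 with the control siRNA. Endothelial markers had a sum of 46.9 with siRNA1, 58.2 with siRNA2 and 73.7 with the control siRNA over 6 genes, with CDH5, VWF, KDR and TEK below the table median. TIE1 gave most of that difference, with 10.1 with siRNA1, 19.5 with siRNA2 and 30.9 with the control siRNA. The other 5 genes summed to 36.8 with siRNA1, 38.7 with siRNA2 and 42.8 with the control siRNA. Of those 5, PECAM1 was above the table median on all arrays, at 19.9 with siRNA1, 22.6 with siRNA2 and 25.0 with the control siRNA.

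Genes with a pattern like that of MMP9 were sought among 8718 measured genes with a control intensity above the 70th percentile of the table. The measure was the distance between pairs of log2 ratios to the control over the 3 arrays, which all pairs share. DANCR was nearest, at a distance of 0.33, with ratios of -2.53 and -2.41. IL11, which signals through the receptor chain gp130, followed at a distance of 0.54, with a value at the floor with siRNA1 that makes its ratio of -3.27 a bound, and -1.95 with siRNA2. FRMD4A, a scaffold protein, was at 0.89, with -2.48 and -1.45, and CLGN, a chaperone of the endoplasmic reticulum, was at 0.96, with -2.15 and -1.58. The second IL11 probe set gave -0.47 and -0.42, and the next brightest set of FRMD4A gave -1.05 and -0.58.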

How the data were processed

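The deposited file gave linear microarray intensities for each probe set on each array. The array medians were nearly equal, and how the authors scaled or normalised the intensities is not given in the sources used here. GCOS 1.4 is named in the submitters' processing notes, with no role stated. Probe sets took their gene from the supplied platform annotation, with symbols updated to RefSeq by gene ID: 41097 of 54675 named 1 gene, 1801 several and 11777 none. The 62 Affymetrix control probe sets stood for no gene. The 50th percentile of all values (10.5) was the floor to which all smaller values were set, which makes a ratio bounded on that side. The probe set with the highest mean stood for its gene. A gene was called at a log2 ratio of at least 1, or at most -1. No test was possible with 1 array per group, and the number of arrays limits the precision.

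The members and lists were chosen with earlier results of these data known. Named beside the members were genes called with both siRNAs in each related list, up to 4 further genes per list with the largest smaller ratio in 1 direction, and the 5 genes nearest MMP9, of which 1 is not reported here. FOSL1, FOSL2, NFKB1, SERPINE2 and THBS1 were chosen after their values were seen, as were the markers given with values, apart from COL3A1. The fold threshold of the calling step was tested on simulated data with no floor and 1 probe set per gene. The floor, the choice of probe set and repeated values were not part of that test. Alternatives were 2 scalings, 3 floors, 2 rules on probe sets and 2 thresholds. Python 3.11.15, numpy 2.4.6, pandas 2.3.3 and matplotlib 3.10.9 were used.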

Additional observations from a re-analysis of the deposited data

How the results depend on the processing

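MMP9 kept its direction and stayed past 2-fold with both siRNAs under quantile normalisation, median-centring and a floor at the 70th percentile. No floor, a floor at the 30th percentile and the median over probe sets could not change it, since its only probe set is above the floor on all arrays. Its log2 ratio ranged from -2.85 to -2.49 with siRNA1 and from -2.33 to -2.26 with siRNA2. With the floor at the 70th percentile the siRNA1 value moved to -2.49, because the siRNA1 intensity was raised to that floor, and is a bound. It was also the member called with both at 1.5-fold and at 3-fold thresholds. Without probe sets ending in _s_at and _x_at the counts of called members were 0 with both siRNAs, 0 with siRNA1 and 0 with siRNA2, because MMP9 has no other set. With no floor 2 members were called with siRNA2, MMP9 and MMP1; MMP1 was added from values of 2.47 and 5.03 under the table median. MMP2 moved to 0.00 with each siRNA by the median over probe sets, because 2 of its 3 sets are at the floor. Over all genes, the count lower with both was 35 at 2-fold, 161 at 1.5-fold, 6 at 3-fold and 23 by the median over probe sets. The counts higher with both were 89, 435, 6 and 31. Of 117 values under these alternatives 111 moved by less than 0.29 (log2) or kept their count. None reversed, though some of the values could not change. The limit of 0.29 is the standard deviation of the siRNA1 over siRNA2 log2 ratio across measured genes, divided by the square root of 2. No paired analysis was possible because each group had 1 array.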
